A study of Mus musculus with 4 samples.

Results

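Spontaneously formed PDGFRα+Flk1- cells were compared with the Flk1+ cells that precede them by 1 day in mouse pluripotent stem cell differentiation. The comparison used 2 of the 4 arrays of the study, the array labelled sfPCB and the array labelled Flk1+MPC, with 1 array per population and no replicates. Flk1+ MPCs are mesodermal precursor cells sorted at day 4.5 for surface Flk1, the receptor encoded by Kdr, after culture in differentiation medium without leukemia inhibitory factor. The sfPCBs are cells with the surface phenotype of PDGFRα+Flk1- cardioblasts (PCBs) that were sorted at day 5.5 from culture without CsAYTE, a mixture of Cyclosporin A, Trolox (an antioxidant), Y27632 (which blocks ROCK) and EW7197 (which blocks ALK5). The other arrays held PCBs formed with CsAYTE at day 5.5 and αMHC+ cardiomyocytes (M+CMs) at day 10.5, and their levels are given beside the sfPCB values where they help to place them. According to the study's methods, precursors formed on gelatin, whereas sorted Flk1+ MPCs went on to grow on mitomycin C-treated OP9 stromal cells or on gelatin. The methods name OP9 as the feeder for cardiac induction, and the ESC lines EMG7, which carries an αMHC-GFP reporter, and E14Tg2a. The sources used here do not tie a surface, an ESC line or DMSO vehicle to the sfPCB array itself. Culture day, sort and culture surface therefore cannot be told apart in this comparison.

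During gastrulation, epiblast cells enter the primitive streak under Wnt, Nodal, BMP and FGF signals, switch on T-box and homeobox regulators such as T, Eomes and Mixl1, and leave as nascent mesoderm. Mesp1 marks the mesoderm that will form heart and vessels. Flk1 appears on this mesoderm, and its progeny include endothelium, blood, smooth muscle and cardiomyocytes, whereas PDGFRα marks paraxial and cardiac mesoderm. The comparison asks what changed over 1 day when no compounds were added.

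Each value is the scaled signal of 1 probe in arbitrary units, and levels of different genes cannot be set against each other. Ratios are sfPCB over Flk1+ MPC, and the error of a log2 ratio covers the spot and its background only. A gene was represented by its brightest RefSeq probe, and 17062 genes were above background in at least 1 of both arrays. A gene counted as higher or lower when the ratio reached 4-fold. The array called 74.1% of probes above background in Flk1+ MPCs and 72.9% in sfPCBs, and no spot was saturated. Where a probe was not well above background in 1 population, the fold is a lower limit against the higher of the lowest signal detected there and the probe's own signal.

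The sort genes were checked first. Kdr, which the sort selected for in Flk1+ MPCs and against in sfPCBs, had a signal of 54864 in Flk1+ MPCs and 4559 in sfPCBs, and 767.8 in PCBs. A second Kdr probe differed less, at 11263 in Flk1+ MPCs and 6661 in sfPCBs. Pdgfra, which the sfPCB sort selected for, had a signal of 7237 in Flk1+ MPCs and 3647 in sfPCBs, and its signal was 9136 in PCBs and 918 in M+CMs. Pdgfra transcript was thus not higher in the cells sorted for PDGFRα than in the precursors, which had not been sorted against it. The sorts used both genes, so their values are a check of the labels and no result.

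Markers of the stromal feeder were higher in sfPCBs. Of the 7 markers of OP9-like stroma, 4 were above background in Flk1+ MPCs and 7 in sfPCBs, 6 were higher and 1 (Thy1) was lower, and Lum, Dcn and Postn were not well above background in the precursors. The sum of their signals was 4125 in Flk1+ MPCs and 270024 in sfPCBs, and the PCB and M+CM arrays had sums of 140346 and 20039. Most of the sum in sfPCBs, PCBs and M+CMs came from the probes of Col1a1 and Col1a2. These had 58341 and 175056 in sfPCBs and 28385.5 and 109298 in PCBs. Dcn had 3794 in sfPCBs and 124 in PCBs, so the sum does not give a share of stromal cells. Hprt, which encodes a purine salvage enzyme and is disrupted in the E14Tg2a line, had a signal of 209.8 in Flk1+ MPCs and 2937 in sfPCBs, against 2669 in PCBs and 80.2 in M+CMs. The stromal sum and Hprt were therefore higher on the sfPCB array beside every gene group described below as higher, and the part of carried-over feeder cells in those groups was not tested. In sorted bulk RNA, a change in the share of a cell type and a change in RNA per cell cannot be told apart.

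**Figure D1:**
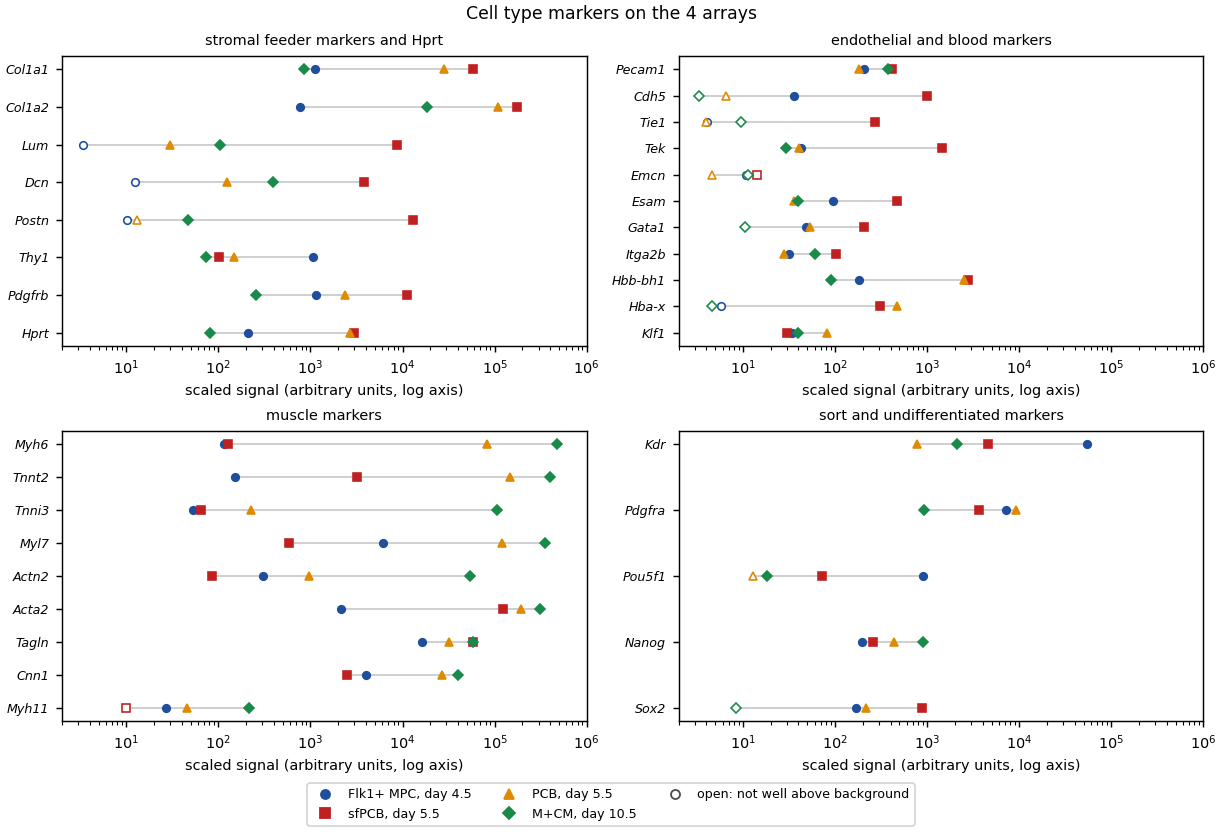
Scaled signal (arbitrary units, log axis) of the cell type markers and Hprt on the 4 arrays, 1 point per array; open symbols are not well above background. Stromal markers other than Thy1 sit higher in sfPCBs than in Flk1+ MPCs, whereas the cardiomyocyte markers of sfPCBs stay well below those of PCBs and M+CMs, apart from Tnni3, where PCBs are also low.

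Over all genes, 1369 of 17062 (8.02%) were at least 4-fold higher in sfPCBs and 625 (3.66%) were at least 4-fold lower. Higher genes made up 68.7% of these, and 79% when the arrays were not scaled to each other. The median log2 ratio over all genes was -0.19, and it was 0.15 without scaling. At 30-fold, 284 genes were higher and 35 were lower. The 4-fold gene counts and shares used the ratios as measured, also where a signal was not well above background. With the fold of such genes set at its lower limit, 1194 genes were at least 4-fold higher and 462 were at least 4-fold lower. Over all 30689 probes detected, 6.7% were at least 4-fold higher and 3.36% lower, and among the 8277 of these without a RefSeq name matched to a gene the shares were 4.1% and 2.86%. The counts of each gene group below are read against the shares over all genes, and its median against -0.19.

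**Figure D2:**
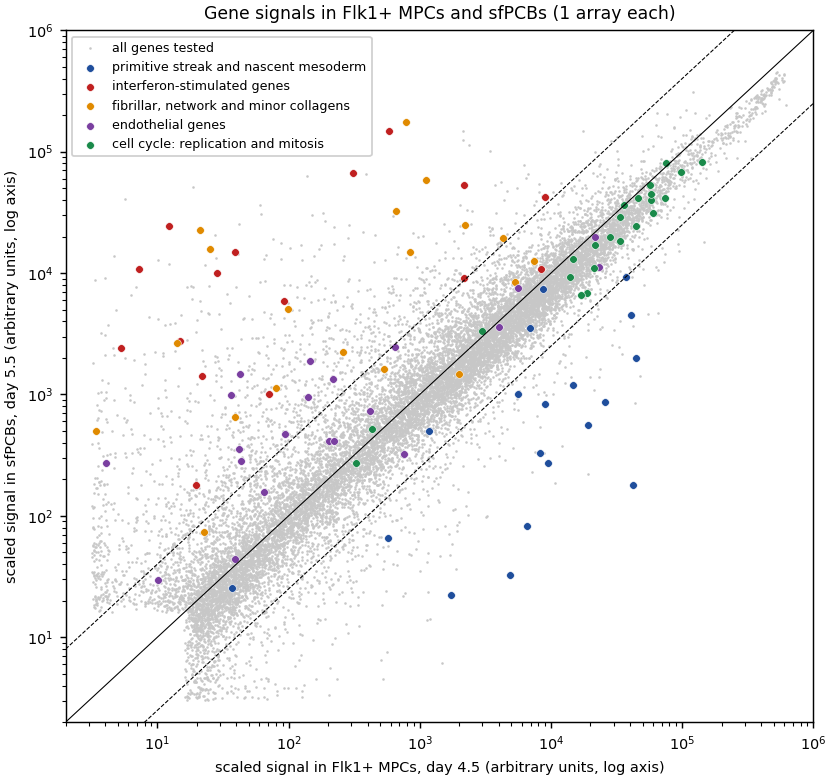
Scaled signal of every gene tested in Flk1+ MPCs (x axis) and sfPCBs (y axis), in arbitrary units on log axes; the solid line marks equal signal and the dashed lines 4-fold differences. Interferon-stimulated genes and collagens lie above the upper dashed line for the most part, most primitive streak genes lie below the lower line, and all replication and mitosis genes lie between them.

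The largest decreases were in regulators of the primitive streak and nascent mesoderm. Mesp1, the transcription factor of cardiovascular mesoderm, had a signal of 42204 in Flk1+ MPCs and 179 in sfPCBs, a 236-fold decrease (log2 ratio -7.89 ± 0.21). Mixl1, a streak homeobox gene, had a signal of 4837 in Flk1+ MPCs and 32.6 in sfPCBs (log2 ratio -7.21 ± 0.27). T (brachyury), the T-box factor of the streak, had a signal of 6554 in Flk1+ MPCs and 82 in sfPCBs (log2 ratio -6.32 ± 0.21). Mesp1, Mixl1 and T were not well above background in PCBs or M+CMs, so that a low residual signal was measured in sfPCBs at a day when the CsAYTE-treated cells showed none above background. The somite regulator Mesp2 had a signal of 1716 in Flk1+ MPCs and 22.4 in sfPCBs, and the organizer gene Gsc one of 19299 in Flk1+ MPCs and 564 in sfPCBs. Lhx1, a LIM homeobox factor of the anterior streak, had a signal of 9466 in Flk1+ MPCs and 271 in sfPCBs.

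Of 19 streak and nascent mesoderm genes tested, 15 were lower, none was higher, and the median log2 ratio was -3.61. Eomes, a T-box factor that acts before Mesp1, was among those that kept a readily measured level, with 41054 in Flk1+ MPCs and 4554 in sfPCBs and 37.8 in PCBs. Evx1, a posterior streak homeobox gene, had 44790.3 in Flk1+ MPCs and 1999 in sfPCBs and was not well above background in PCBs. Tbx6, the factor of paraxial mesoderm, had 8298 in Flk1+ MPCs and 332 in sfPCBs. Snai1, which represses epithelial genes as cells leave the streak, had 37574 in Flk1+ MPCs and 9361 in sfPCBs, just past 4-fold. Nodal, the ligand that induces the streak, was not among the lower genes. Its signal was 8675 in Flk1+ MPCs and 7382 in sfPCBs, whereas it was 161 in PCBs and 143 in M+CMs. Against the same Flk1+ MPC array, 18 of these 19 genes were lower in PCBs and 17 in M+CMs.

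Other large decreases fell in genes outside this group. Epha1, an Eph receptor tyrosine kinase, had a signal of 10711 in Flk1+ MPCs and 185 in sfPCBs, and Upp1, a uridine phosphorylase, had 43745 in Flk1+ MPCs and 851 in sfPCBs. The M+CM array had a Upp1 signal of 11332. Tmem114 and Syndig1l, which encode membrane proteins, had 1877 and 1693 in Flk1+ MPCs and 36.7 and 47.2 in sfPCBs. Gad1, the glutamate decarboxylase that makes GABA, had 750.5 in Flk1+ MPCs and 22 in sfPCBs, and Gna14, a G protein alpha subunit, had 766 in Flk1+ MPCs and 23.3 in sfPCBs. Among genes not well above background in sfPCBs, the largest were Kdf1 (signal in Flk1+ MPCs 1471, at least 97.2-fold lower), the sphingosine 1-phosphate receptor S1pr5 (1195, at least 79-fold), Igfbpl1 (1131, at least 74.7-fold), the diacylglycerol kinase Dgkg (567, at least 37.5-fold) and Sowahd (526, at least 34.7-fold). Igfbpl1 was 868 in PCBs, so the day 5.5 populations differed at this gene.

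**Figure D3:**
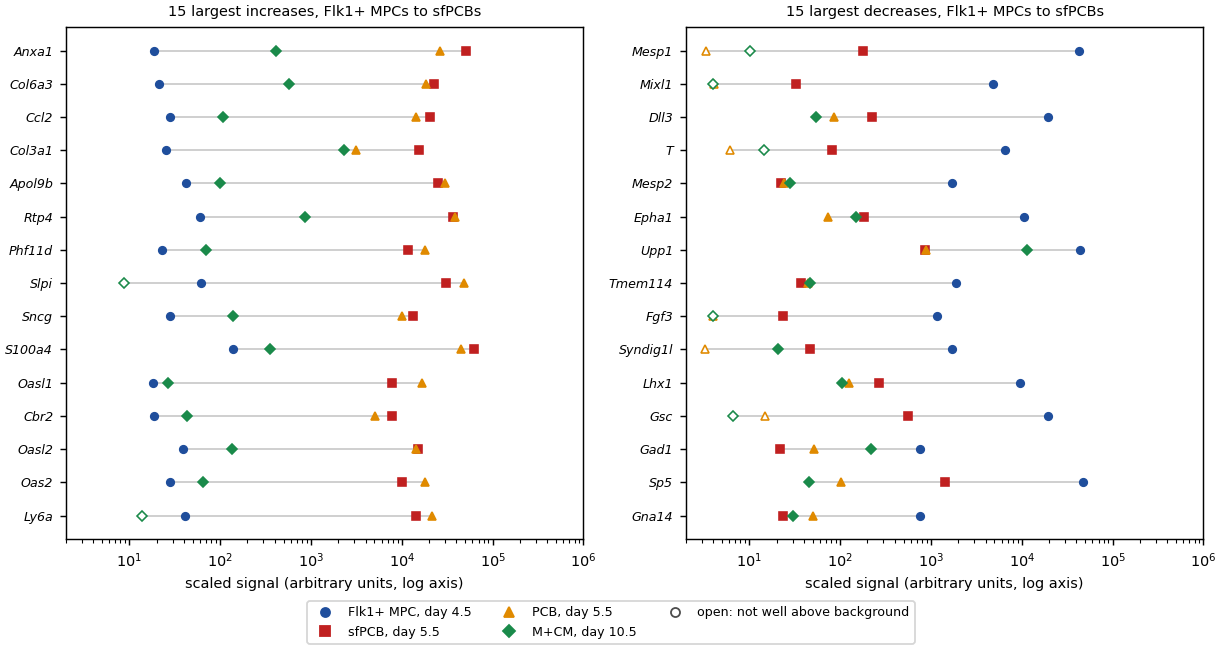
Scaled signal (arbitrary units, log axis) on the 4 arrays for the top 15 increases and the top 15 decreases over genes above background in both Flk1+ MPCs and sfPCBs; open symbols are not well above background. The increases run from signals of 18.1 to 137 in Flk1+ MPCs to 7705 to 63025 in sfPCBs, and Mesp1 heads the decreases.

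Pluripotency genes were lower by their median (-1.44), with 6 of 19 lower, 1 higher and the other 12 within 4-fold. Pou5f1, which encodes Oct4, had a signal of 897 in Flk1+ MPCs and 71.6 in sfPCBs and was not well above background in PCBs. Dppa5a, expressed in undifferentiated cells, had 8781 in Flk1+ MPCs and 327 in sfPCBs. Fgf4, an early growth factor of the epiblast, had 505 in Flk1+ MPCs and was at least 33.4-fold lower. Within 4-fold were Nanog, at 194 in Flk1+ MPCs and 256 in sfPCBs, and the Krüppel-like factors Klf4, at 5647 in Flk1+ MPCs and 11590.0 in sfPCBs, and Klf2, at 3055 in Flk1+ MPCs and 4549 in sfPCBs. The higher gene was Sox2, a factor of pluripotent and neural cells, with 167 in Flk1+ MPCs and 877 in sfPCBs (log2 ratio 2.39 ± 0.21), while PCBs had 217.

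Among neural ectoderm genes, 3 of 13 were higher and 4 were lower. The higher ones were Tubb3, a neuronal tubulin (110.3 in Flk1+ MPCs and 1282 in sfPCBs), Sox3, a close relative of Sox2 (253 in Flk1+ MPCs and 2293 in sfPCBs), and the Notch target Hes5 (117 in Flk1+ MPCs and 826 in sfPCBs). In PCBs, Sox3 was not well above background. The lower ones were Otx2, the anterior homeobox factor (41939.9 in Flk1+ MPCs and 3650.3 in sfPCBs), which the epiblast also expresses, and zinc finger genes that include Zic1 (1783 in Flk1+ MPCs and 181 in sfPCBs) and Zic2 (2331 in Flk1+ MPCs and 102 in sfPCBs). The neural list thus held genes that differed in opposite directions.

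Genes of the Wnt pathway were lower as a group. Of 25 tested, 12 were lower, 3 were higher, and the median was -1.55. Among ligands, Wnt5b had 21240.1 in Flk1+ MPCs and 1089 in sfPCBs, Wnt3, the ligand of the streak, had 8994 in Flk1+ MPCs and 838 in sfPCBs, and Wnt6 had 535 in Flk1+ MPCs and 42.2 in sfPCBs. Wnt8a had 115 in Flk1+ MPCs and was at least 7.57-fold lower. Wnt4 went the other way, with 529 in Flk1+ MPCs and 3144 in sfPCBs. Direct transcriptional targets were lower too. Sp5, a zinc finger repressor, had 47602 in Flk1+ MPCs and 1428 in sfPCBs and 102 in PCBs, and the feedback inhibitor Axin2 had 4012 in Flk1+ MPCs and 313 in sfPCBs. The nuclear effectors Lef1 and Tcf7 had 8109 and 3139 in Flk1+ MPCs and 1475 and 689 in sfPCBs.

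Genes of the secreted Dkk proteins and of Frzb were split in direction. Dkk1 had 28991 in Flk1+ MPCs and 2552 in sfPCBs and Frzb had 3102 in Flk1+ MPCs and 259.6 in sfPCBs, both lower. Dkk3 had 284 in Flk1+ MPCs and 8613 in sfPCBs (log2 ratio 4.92 ± 0.20), and Dkk2 was not well above background in Flk1+ MPCs and had 662 in sfPCBs, at least 41.5-fold higher. PCBs showed 4310.1 for Dkk3, and their Dkk2 was not well above background. The ligand Wnt5a was close on both arrays, with 4883 in Flk1+ MPCs and 5526 in sfPCBs.

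FGF ligands and the genes that respond to FGF showed the same direction. Of 22 tested, 9 were lower, 2 were higher, and the median was -1.84, or -1.35 with genes detected in 1 array set at their limit, when 8 were lower. Fgf8, which drives cells out of the streak, had 14691 in Flk1+ MPCs and 1206 in sfPCBs, while PCBs had 3189. Fgf3 had 1157 in Flk1+ MPCs and 23.6 in sfPCBs, Fgf15 had 1375 in Flk1+ MPCs and 135 in sfPCBs and Fgf5, of the late epiblast, had 5711 in Flk1+ MPCs and 1064 in sfPCBs. The feedback inhibitor Spry4 had 1556 in Flk1+ MPCs and 82.8 in sfPCBs, and the ETS factor Etv4, a target of FGF signaling, had 13604 in Flk1+ MPCs and 2488 in sfPCBs. Dusp6, another target, had 27652 in Flk1+ MPCs and 18716 in sfPCBs, less than 4-fold apart. The receptor Fgfr1 was 19781 in Flk1+ MPCs and 34267 in sfPCBs. Fgf7, a ligand typical of mesenchyme, had 111 in Flk1+ MPCs and 3676 in sfPCBs (log2 ratio 5.04 ± 0.21), and the receptor Fgfr3 had 994 in Flk1+ MPCs and 5819 in sfPCBs. Fgf7 was 2965 in PCBs, where the stromal sum was also higher than in the precursors.

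In the Notch pathway, both lower genes were Delta-like ligands. Dll3, a Delta-like protein of presomitic mesoderm, had 19270.0 in Flk1+ MPCs and 223 in sfPCBs, an 86.5-fold decrease (log2 ratio -6.44 ± 0.21). Dll1, the activating ligand of the same tissue, had 1161 in Flk1+ MPCs and 49.3 in sfPCBs. Lfng, the glycosyltransferase that modifies Notch, had 284 in Flk1+ MPCs and 74.1 in sfPCBs, just under 4-fold. The ligands Jag1 and Jag2 had 1900.4 and 212 in Flk1+ MPCs and 1736 and 57.3 in sfPCBs, both within 4-fold. Notch1, Notch2, Notch3 and Notch4 had 558, 2261, 19693 and 390.2 in Flk1+ MPCs and 971, 2835, 17280.3 and 329 in sfPCBs, none 4-fold apart. Heyl, a target gene, was not well above background in the precursors or in PCBs and had 456 in sfPCBs, at least 28.6-fold higher. In all, 1 of 14 genes was higher and 2 were lower, against 8.02% and 3.66% over all genes. The median was -0.22, close to that of all genes.

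The BMP pathway showed 5 lower genes and 1 higher gene of 23, with a median of -0.24. Over all genes, 3.66% were lower and 8.02% were higher. Bmp4, the ligand that induces ventral and extraembryonic mesoderm, was less than 4-fold apart, with 99348 in Flk1+ MPCs and 58732 in sfPCBs. Bmp7 had 11673 in Flk1+ MPCs and 1870.2 in sfPCBs, the signal transducer Smad1 had 3938 in Flk1+ MPCs and 811 in sfPCBs, and Bmper, a secreted modulator, had 12638 in Flk1+ MPCs and 3033 in sfPCBs. The homeobox target Msx1 had 23706 in Flk1+ MPCs and 3465 in sfPCBs. Grem1, a secreted antagonist, had 120.0 in Flk1+ MPCs and was at least 7.93-fold lower. Id2, a target that inhibits bHLH factors, was the higher gene, with 2026 in Flk1+ MPCs and 9890.4 in sfPCBs, and was 32427 in PCBs. Id1 and Id3 were less than 4-fold apart, Id1 at 13704 in Flk1+ MPCs and 18839 in sfPCBs.

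In the TGF-β, activin and Nodal list, 9 of 25 genes were higher, 2 were lower, 14 were within 4-fold, and the median was 0.57. The lower genes were Lefty2 (25874 in Flk1+ MPCs and 865 in sfPCBs) and Lefty1 (491 in Flk1+ MPCs and 66.5 in sfPCBs), both secreted Nodal inhibitors of the early embryo. Among ligands, Tgfb2 had 2143 in Flk1+ MPCs and 21191 in sfPCBs, Tgfb3 had 160.0 in Flk1+ MPCs and 1969 in sfPCBs, and the activin subunit Inhba was not well above background in the precursors and had 2149.9 in sfPCBs, at least 135-fold higher. Tgfb1 was 2323 in Flk1+ MPCs and 1115 in sfPCBs, and the activin subunit Inhbb was 83.5 in Flk1+ MPCs and 44.2 in sfPCBs. The activin receptor Acvr2b was 49575 in Flk1+ MPCs and 21220.4 in sfPCBs, within 4-fold. The receptors Tgfbr2 and Tgfbr3 had 487 and 1168 in Flk1+ MPCs and 2144 and 8175 in sfPCBs. Tgfbi, an adhesion protein that TGF-β is known to induce, had 3407 in Flk1+ MPCs and 100726 in sfPCBs. It was 21486 in PCBs, which formed with the whole CsAYTE mixture, and the part of any single compound was not tested. Fibroblasts also express Tgfbi strongly, and the stromal markers given above were higher beside it. The part of stromal RNA was not tested.

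**Figure D4:**
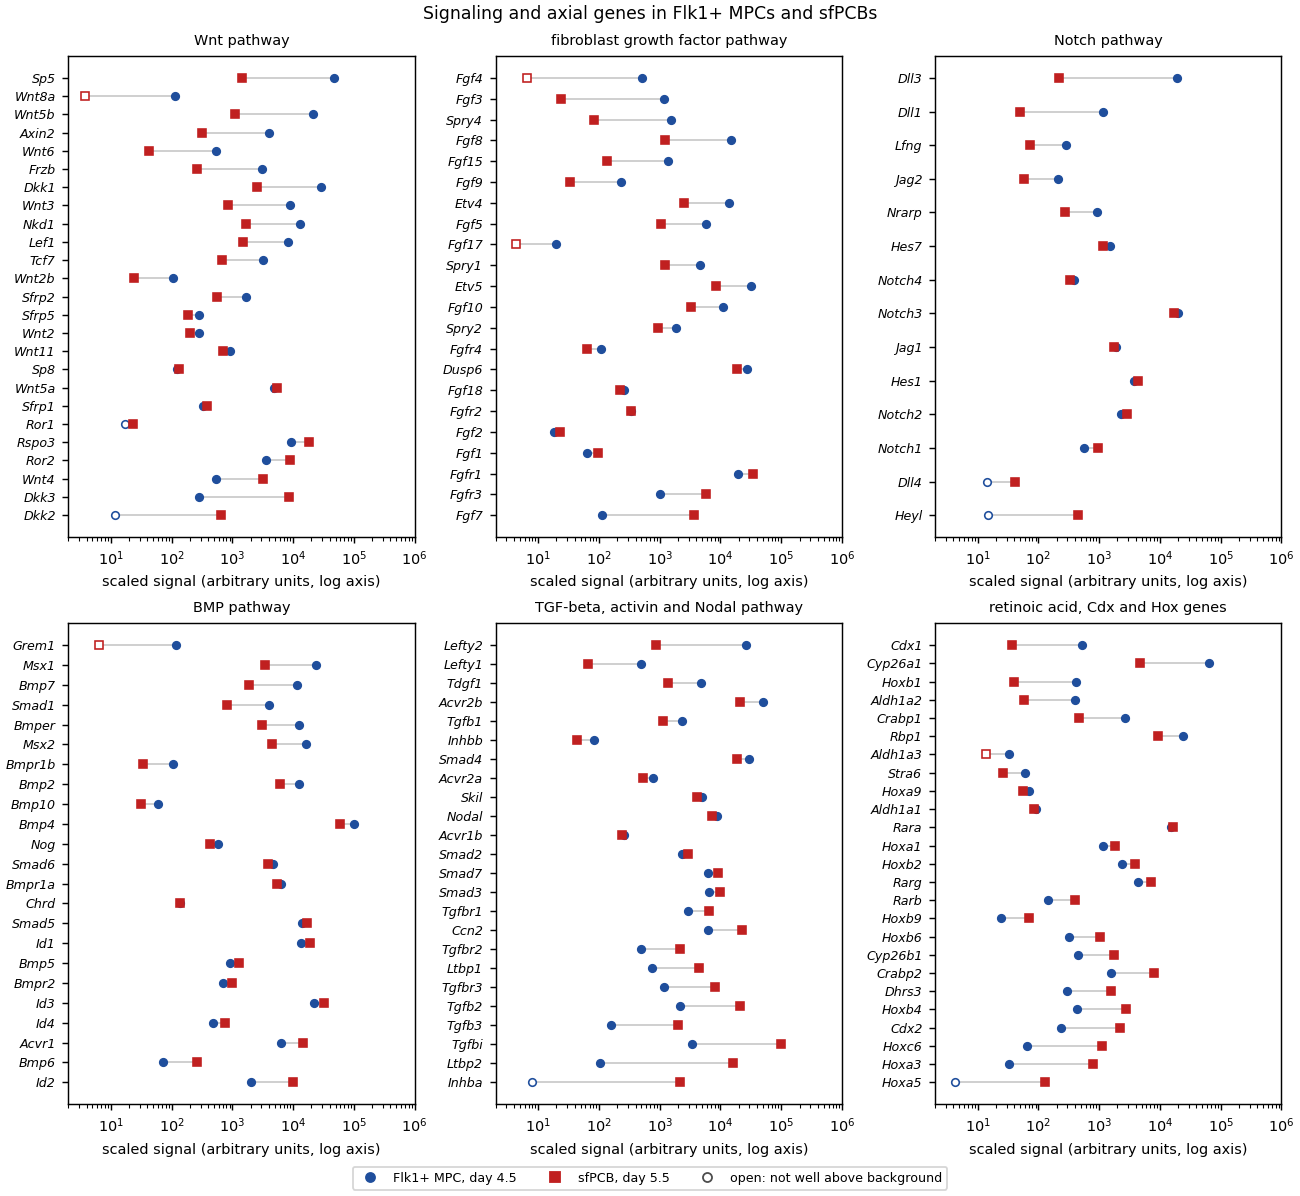
Scaled signal (arbitrary units, log axis) in Flk1+ MPCs (circles) and sfPCBs (squares) for genes of 6 signaling lists, sorted by ratio; open symbols are not well above background. Wnt and FGF genes lie mostly with the sfPCB symbol to the left, and Tgfb2, Tgfb3, Tgfbr2, Tgfbr3 and Tgfbi with it to the right.

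Genes of retinoic acid handling and axial position differed in both directions. Of 25 tested, 7 were higher and 5 were lower. Cyp26a1, which degrades retinoic acid, had 64999 in Flk1+ MPCs and 4658 in sfPCBs, and 42.1 in PCBs. Aldh1a2, which makes retinoic acid in mesoderm, had 396 in Flk1+ MPCs and 57.1 in sfPCBs. The binding protein Crabp2 had 1551 in Flk1+ MPCs and 7912 in sfPCBs, whereas Crabp1 had 2702 in Flk1+ MPCs and 465 in sfPCBs. Cdx1 had 523 in Flk1+ MPCs and 36.5 in sfPCBs, but its paralog Cdx2, a regulator of posterior identity and of trophectoderm, had 233 in Flk1+ MPCs and 2195 in sfPCBs (log2 ratio 3.24 ± 0.21) and was 16.7 in PCBs. Among Hox genes, Hoxb1 was lower (410.3 in Flk1+ MPCs and 39.5 in sfPCBs), and the higher ones were Hoxa3 (33 in Flk1+ MPCs and 795 in sfPCBs), Hoxb4 (433 in Flk1+ MPCs and 2744 in sfPCBs), Hoxc6 (66 in Flk1+ MPCs and 1119 in sfPCBs) and Hoxa5, which was not well above background in the precursors (sfPCB signal 131, at least 8.19-fold higher). Hoxc6 was 77.9 in PCBs, so that Cdx2 and Hoxc6 differed between the day 5.5 populations.

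Cardiac transcription factors showed a mixed pattern centred near no change. Of 24 tested, 6 were higher, 2 were lower, and the median was 0.02. Meis1, a TALE homeobox factor of cardiac progenitors, had 347 in Flk1+ MPCs and 8813 in sfPCBs (log2 ratio 4.67 ± 0.20), with 27911 in PCBs. Mef2c, of the second heart field, had 19.8 in Flk1+ MPCs and 201 in sfPCBs, and Myocd, the coactivator of smooth and cardiac muscle genes, had 156 in Flk1+ MPCs and 984 in sfPCBs. Both were higher still on the PCB array, at 1616 and 16719. Hand2 had 1931 in Flk1+ MPCs and 8537 in sfPCBs and Tbx2 had 1009 in Flk1+ MPCs and 4822 in sfPCBs.

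Several other cardiac factors were less than 4-fold apart. Nkx2-5 had 657 in Flk1+ MPCs and 591 in sfPCBs, whereas it was 9016 in PCBs and 47780.2 in M+CMs. Tbx5 had 687 in Flk1+ MPCs and 397 in sfPCBs, against 2759 in PCBs. Gata4 had 18271 in Flk1+ MPCs and 6173 in sfPCBs and Isl1, of the second heart field, had 924 in Flk1+ MPCs and 1641 in sfPCBs. Tbx3, a T-box repressor, was lower, with 51182 in Flk1+ MPCs and 7982 in sfPCBs, as was Prdm1, with 1252 in Flk1+ MPCs and 299 in sfPCBs, just past 4-fold.

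Sarcomere genes separated sfPCBs from the PCBs of the same day and from the later M+CMs. Of 23 tested, 6 were higher and 3 were lower in sfPCBs, with a median of 0.14. On the PCB array 19 of 23 were higher than in the same Flk1+ MPCs, with a median of 5.57, and on the M+CM array 23 of 23, with a median of 8.26. Tnnt2, cardiac troponin T, had 150.2 in Flk1+ MPCs and 3176 in sfPCBs (log2 ratio 4.40 ± 0.21), 145595 in PCBs and 403180.0 in M+CMs. Tnni1, the slow troponin I of the fetal heart, had 189.8 in Flk1+ MPCs and 7549 in sfPCBs and 76569.9 in PCBs. Myh6, which encodes αMHC, had 116 in Flk1+ MPCs and 128 in sfPCBs, with 82857 in PCBs. Ttn, the giant spring of the sarcomere, was not well above background in Flk1+ MPCs and had 192 in sfPCBs, at least 12-fold higher, and 13455 in PCBs.

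Some contractile genes were lower after the day. Myl7, the atrial light chain, had 6095 in Flk1+ MPCs and 588 in sfPCBs (log2 ratio -3.37 ± 0.20) but 119771 in PCBs. Actc1 and Myl4, both expressed early in the heart tube, differed little, with Actc1 at 4786 in Flk1+ MPCs and 4733 in sfPCBs and Myl4 at 7600.1 in Flk1+ MPCs and 7787 in sfPCBs. Myl1 was detected in Flk1+ MPCs (69) and not well above background in sfPCBs, at least 4.56-fold lower. Of 16 genes of excitability and calcium handling, 2 were higher, and these were Ryr2, the calcium release channel (38 in Flk1+ MPCs and 227 in sfPCBs), and Nppb, brain natriuretic peptide (43.1 in Flk1+ MPCs and 248 in sfPCBs). Kcnj3, an inward rectifier channel, was the 1 lower gene, but by its limit it was under 4-fold. Both counts were near the shares over all genes (8.02% higher and 3.66% lower). Pln, phospholamban, was not well above background on either array.

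Smooth muscle genes were higher. Of 13 tested, 5 were higher, none was lower, and the median was 1.63. Acta2, smooth muscle α-actin, had 2125 in Flk1+ MPCs and 124536 in sfPCBs (log2 ratio 5.87 ± 0.20), with 191818 in PCBs and 312114 in M+CMs. Actg2, the enteric actin, had 22.1 in Flk1+ MPCs and 1904 in sfPCBs, and Des, desmin, had 104 in Flk1+ MPCs and 453 in sfPCBs. The actin-binding protein Tagln had 16449.9 in Flk1+ MPCs and 58693 in sfPCBs, under 4-fold. Cnn1, calponin, was 3990.2 in Flk1+ MPCs and 2501 in sfPCBs, and Myh11, the heavy chain of mature smooth muscle, was detected in Flk1+ MPCs and not well above background in sfPCBs. Early heart, smooth muscle and stromal cells all express Acta2, and the stromal sum was higher beside it.

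Among regulators of lateral plate, paraxial and epicardial mesoderm, 5 of 18 were higher, none was lower, and the median was 1.12. Prrx1, a homeobox factor of limb and body wall mesenchyme, was not well above background in the precursors and had 2098 in sfPCBs, at least 132-fold higher. Tcf21, a factor of epicardial and fibroblast lineages, had 25.3 in Flk1+ MPCs and 405 in sfPCBs, and Osr1, of intermediate and lateral mesoderm, had 131 in Flk1+ MPCs and 963 in sfPCBs. Tbx18, of the epicardium and sinus horns, was not well above background in the precursors and had 136 in sfPCBs. Foxf1, of splanchnic mesoderm, had 23147 in Flk1+ MPCs and 10585 in sfPCBs.

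Endothelial genes were higher in sfPCBs although the sort had selected against Flk1. Of 21 tested, 9 were higher, none was lower, and the median was 1.55 (1.29 with genes detected in 1 array set at their limit). Tek, the angiopoietin receptor, had 42.4 in Flk1+ MPCs and 1463 in sfPCBs (log2 ratio 5.11 ± 0.24), with 40.4 in PCBs. Cdh5, VE-cadherin, had 36.2 in Flk1+ MPCs and 987 in sfPCBs and was not well above background in PCBs. The ETS factor Fli1 had 146 in Flk1+ MPCs and 1879 in sfPCBs, with 71.9 in PCBs. Tie1 was above background on the sfPCB array and not well above background on the other arrays, with a signal of 270.1, at least 16.9-fold higher than in Flk1+ MPCs.

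Other genes of this list were not higher. Etv2, the factor that initiates blood and endothelium in mesoderm, had 23066 in Flk1+ MPCs and 11262 in sfPCBs, while PCBs had 153. Flt1 and Egfl7 had 4017 and 21661 in Flk1+ MPCs and 3573 and 19927 in sfPCBs. Emcn, a marker of mature capillaries and veins, was not well above background on any array. The summed signal of 6 endothelial markers was 392 in Flk1+ MPCs and 3617 in sfPCBs, while the PCB and M+CM arrays gave 272 and 466. Over all 21 genes tested, which include the bright Etv2 and Egfl7, the sum did not rise. It was 57526 in Flk1+ MPCs and 54869 in sfPCBs, against 14792 in PCBs and 6306 in M+CMs. Against the same Flk1+ MPC array, none of these 21 endothelial genes was higher in PCBs and 12 were lower.

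Primitive blood genes gave 5 higher and 1 lower of 19, with a median of 0.77. The embryonic globin Hbb-bh1 had 182 in Flk1+ MPCs and 2781 in sfPCBs, close to its 2525 in PCBs. Hba-x, embryonic α-globin, was not well above background in Flk1+ MPCs and had 308 in sfPCBs and 465 in PCBs. Cd34, of progenitors and vessels, had 418 in Flk1+ MPCs and 7379 in sfPCBs, and Gata1, the erythroid factor, had 48.1 in Flk1+ MPCs and 206 in sfPCBs. Both were lower on the PCB array, at 72.8 and 53.5. A second Cd34 probe had a log2 ratio of 1.67, under 4-fold. Klf1, an erythroid factor, was 34.1 in Flk1+ MPCs and 29.8 in sfPCBs, and Runx1 was 1412 in Flk1+ MPCs and 1709 in sfPCBs. Lmo2, a partner of Tal1, was the lower gene (2518 in Flk1+ MPCs and 598 in sfPCBs).

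Endoderm genes gave 5 higher and 1 lower of 17. Afp, α-fetoprotein of yolk sac and liver, and Cubn, an endocytic receptor of visceral endoderm, were not well above background in the precursors and had 471 and 659.5 in sfPCBs, at least 29.6-fold and 41.4-fold higher. A second Cubn probe differed less, with a log2 ratio of 2.71. Dab2, an endocytic adaptor of visceral endoderm, had 279 in Flk1+ MPCs and 2627 in sfPCBs. Afp and Cubn were 376 and 421 in PCBs. Foxa2 and Sox17, the factors of definitive endoderm, were 924 and 757 in Flk1+ MPCs and 237 and 322 in sfPCBs, and Cxcr4 was lower (4152 in Flk1+ MPCs and 538 in sfPCBs). The yolk sac genes Ttr and Apoa1 were not well above background on either array.

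Collagens formed one of the most uniform groups. Of 19 tested, 14 were higher, none was lower, and the median was 4.05. Col6a3 had 21.2 in Flk1+ MPCs and 22521 in sfPCBs, a 1063-fold increase (log2 ratio 10.05 ± 0.34), and Col3a1, a fibrillar collagen of loose connective tissue, had 25.1 in Flk1+ MPCs and 15636 in sfPCBs (log2 ratio 9.29 ± 0.28). Col1a1 and Col1a2, the chains of type I collagen, had 1110.2 and 779.9 in Flk1+ MPCs and 58341 and 175056 in sfPCBs. The basement membrane chains Col4a1 and Col4a2 were less than 4-fold apart, with Col4a1 at 7373 in Flk1+ MPCs and 12579 in sfPCBs. In M+CMs, Col6a3 was 568 and Col1a1 was 860.0. Col1a1 and Col1a2 are among the stromal markers summed above (4125 in Flk1+ MPCs and 270024 in sfPCBs).

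Other stromal genes followed. Of 33 stromal and fibroblast genes, 23 were higher, 1 was lower, and the median was 4.58. Lum, lumican, was not well above background in Flk1+ MPCs and had 8782 in sfPCBs but 30.2 in PCBs. Postn, periostin, had 12884 in sfPCBs, at least 808-fold higher, and was not well above background in either Flk1+ MPCs or PCBs. Dcn, decorin, had 3794 in sfPCBs and 124 in PCBs. S100a4, a calcium-binding protein of fibroblasts, had 137 in Flk1+ MPCs and 63025 in sfPCBs, and Ly6a, which encodes Sca-1, had 41.3 in Flk1+ MPCs and 14292 in sfPCBs. Thy1 was the lower gene, with 1065 in Flk1+ MPCs and 102 in sfPCBs, and Fn1, fibronectin, was 314178 in Flk1+ MPCs and 162503 in sfPCBs. Lum, Postn and Dcn thus separated sfPCBs from PCBs, whereas S100a4 and Ly6a were 45092 and 21679 in PCBs.

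OP9 cells are preadipocyte-like, and 7 of 12 preadipocyte genes were higher with none lower (median 2.47). Fabp4, the adipocyte fatty acid-binding protein, had 102 in Flk1+ MPCs and 7958 in sfPCBs, with 23663 in PCBs, and Pparg, the master regulator of fat cells, had 542 in Flk1+ MPCs and 5255 in sfPCBs. The adipokine Adipoq was 40.2 in Flk1+ MPCs and 24.9 in sfPCBs. These lists hold genes that feeder cells express, so their counts do not say which cells carried the RNA.

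Interferon-stimulated genes formed the group with the highest median. Of 16 tested, 15 were higher, none was lower, and the median was 6.77, or 6.62 with genes detected in 1 array set at their limit. Isg15, the ubiquitin-like modifier, had 580.5 in Flk1+ MPCs and 148987 in sfPCBs, Oas1a, which makes the oligoadenylates that activate RNase L, had 311 in Flk1+ MPCs and 67021 in sfPCBs, and Oas2 had 28.4 in Flk1+ MPCs and 10036 in sfPCBs. Ifit3 and Ifit1, which encode antiviral proteins, were not well above background in the precursors and had 24364 and 10744 in sfPCBs, at least 1528-fold and 674-fold higher. Rsad2, viperin, had 2436 in sfPCBs, at least 153-fold higher. Irf7, the factor that amplifies the interferon response, had 22.1 in Flk1+ MPCs and 1407 in sfPCBs, while Irf1 was 8400.0 in Flk1+ MPCs and 10825 in sfPCBs. PCBs had like levels, at 113168 for Isg15 and 23583 for Ifit3, whereas M+CMs had 1756 and 917.

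The interferon-stimulated response element is the site that the ISGF3 factor binds upstream of interferon-stimulated genes. The promoters of 4 list genes are shown, all taken from those that hold the core of this element. Each is the 250 bases before the gene's start from RefSeq on GRCm38.p6, 5′ to 3′ on the gene's strand, with matches to the core GAAANNGAAA, searched on both strands, in capitals. The Isg15 sequence is at chr4:156200819-156201068, minus strand. Those of Ifit1, Ifit3 and Rsad2 are at chr19:34640639-34640888, plus strand, at chr19:34583279-34583528, plus strand and at chr12:26456453-26456702, minus strand.
Isg15: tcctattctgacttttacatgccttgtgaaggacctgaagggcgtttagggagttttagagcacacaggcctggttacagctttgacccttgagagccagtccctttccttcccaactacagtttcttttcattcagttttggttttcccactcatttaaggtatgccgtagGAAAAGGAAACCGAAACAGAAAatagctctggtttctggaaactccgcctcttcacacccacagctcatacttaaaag
Ifit1: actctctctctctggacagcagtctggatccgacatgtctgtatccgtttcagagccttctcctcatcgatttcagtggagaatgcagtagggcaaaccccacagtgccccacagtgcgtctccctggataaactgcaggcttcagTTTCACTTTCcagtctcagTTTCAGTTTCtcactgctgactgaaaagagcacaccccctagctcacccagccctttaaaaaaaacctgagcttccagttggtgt
Ifit3: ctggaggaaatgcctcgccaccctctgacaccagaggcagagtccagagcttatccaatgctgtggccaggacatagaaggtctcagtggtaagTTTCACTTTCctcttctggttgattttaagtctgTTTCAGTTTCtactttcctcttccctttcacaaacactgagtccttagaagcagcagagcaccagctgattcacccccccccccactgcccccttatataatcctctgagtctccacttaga
Rsad2: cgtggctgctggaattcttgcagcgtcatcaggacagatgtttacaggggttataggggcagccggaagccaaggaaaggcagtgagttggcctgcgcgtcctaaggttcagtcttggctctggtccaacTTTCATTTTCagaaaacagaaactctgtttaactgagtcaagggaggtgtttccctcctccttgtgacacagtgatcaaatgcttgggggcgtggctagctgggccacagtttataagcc
In Isg15 the 3 matches overlap and begin 78, 72 and 66 bases before the start. Ifit1 has matches beginning 104 and 85 bases before its start, Ifit3 has them 156 and 122 bases before, and Rsad2 has a match 120 bases before. Over the window from 250 bases before to 50 after the start, 7 of the 13 list genes with a promoter entry (53.8%) held the core, against 3.99% of all 27025 genes and 3.44% of all 32851 promoters. Oasl2, Ifi44, Irf7, Ifi35, Ifit2 and Irf1 held no match, and all of these but Irf1 were at least 4-fold higher in sfPCBs. The list was chosen from genes known to respond to interferon. A share above that of all genes follows from this choice and is no result of these arrays. A match describes the letters and does not show binding.

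Several genes outside this list that led the increases are also known to respond to interferon. Rtp4 had 60.7 in Flk1+ MPCs and 36198 in sfPCBs, Apol9b had 41.8 in Flk1+ MPCs and 25301 in sfPCBs, Phf11d had 23.2 in Flk1+ MPCs and 11711 in sfPCBs, Oasl1 had 18.1 in Flk1+ MPCs and 7886 in sfPCBs and Oasl2, which is on the list, had 38.8 in Flk1+ MPCs and 14974 in sfPCBs. Probes for Apol9b and Ifit3 may also take up RNA of close paralogs. B2m, the light chain of MHC class I, had 8094 in Flk1+ MPCs and 54578 in sfPCBs. The stromal summed signal and Hprt were also higher in sfPCBs and in PCBs than in Flk1+ MPCs, and the part of feeder RNA in these genes was not tested.

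Chemokines and inflammatory cytokines were next, with 14 of 18 higher, none lower, and a median of 5.95 (13 higher and 5.42 with limits). Ccl2, which draws monocytes, had 27.7 in Flk1+ MPCs and 20588 in sfPCBs (log2 ratio 9.54 ± 0.28), and its neighbor Ccl7 was not well above background in the precursors and had 13729.8 in sfPCBs, at least 861-fold higher. Cxcl1 had 24.8 in Flk1+ MPCs and 7887 in sfPCBs, and Cxcl10, an interferon-induced chemokine, had 39.7 in Flk1+ MPCs and 7609 in sfPCBs. Il6 was not well above background in Flk1+ MPCs and had 643 in sfPCBs and 2038 in PCBs. Csf1, macrophage colony-stimulating factor, had 264 in Flk1+ MPCs and 13705 in sfPCBs. Of the genes named here, Ccl2, Ccl7 and Csf1 were lower in PCBs than in sfPCBs, at 14457, 9784 and 8650. Cxcl1, Cxcl10 and Il6 were higher in PCBs, with Cxcl1 at 9437 and Cxcl10 at 12848. In M+CMs, Ccl2 was 108. The part of stromal RNA in these genes was not tested. Il6 was not well above background in M+CMs.

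The remaining leading increases were in genes of varied function. Anxa1, a phospholipid-binding protein of inflammation, had 18.8 in Flk1+ MPCs and 51116 in sfPCBs, the largest ratio among genes detected in both arrays (log2 ratio 11.41 ± 0.34). A second Anxa1 probe had a log2 ratio of 10.11. The lowest signal detected in Flk1+ MPCs was 15.9. Precursor signals of Anxa1, Cbr2, Oasl1 and Col6a3 were near it, so the size and rank of these ratios depend on the floor. Spp1, osteopontin, was not well above background in the precursors and had 41107 in sfPCBs, at least 2578-fold higher. Slpi, a secreted protease inhibitor, had 61.9 in Flk1+ MPCs and 30618 in sfPCBs, and Sncg, γ-synuclein, had 27.8 in Flk1+ MPCs and 13298 in sfPCBs. Cbr2, a carbonyl reductase, had 18.8 in Flk1+ MPCs and 7705 in sfPCBs, and a second Cbr2 probe had a log2 ratio of 4.08. Tm4sf1, a membrane protein of endothelium and stroma, had 11780.0 in sfPCBs, at least 739-fold higher. In PCBs, Anxa1 was 26619, Spp1 was 21325 and Slpi was 49008, whereas in M+CMs Anxa1 was 407.

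Vascular growth factor genes gave 5 higher and none lower of 15, with a median of 0.99. Angpt1, the activating ligand of Tek, was not well above background in Flk1+ MPCs and had 3746 in sfPCBs, at least 235-fold higher, and Angpt2 had 123 in Flk1+ MPCs and 2603 in sfPCBs. The receptor Pdgfrb, of pericytes and stroma, had 1144 in Flk1+ MPCs and 11066 in sfPCBs, with 2348 in PCBs, and Pdgfc had 168 in Flk1+ MPCs and 4119 in sfPCBs. Vegfa was 7215 in Flk1+ MPCs and 12191 in sfPCBs.

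Of 22 genes of adhesion and epithelial or mesenchymal state, 5 were higher and 2 were lower. Snai2, a repressor of epithelial genes, had 259.7 in Flk1+ MPCs and 12918 in sfPCBs (log2 ratio 5.64 ± 0.21), in contrast to the lower Snai1. Twist2 had 573 in Flk1+ MPCs and 7462 in sfPCBs, P-cadherin Cdh3 had 327 in Flk1+ MPCs and 4204 in sfPCBs and integrin β3 Itgb3 had 64.1 in Flk1+ MPCs and 1379 in sfPCBs. Epcam, an adhesion molecule of epithelia and stem cells, had 723 in Flk1+ MPCs and 95.9 in sfPCBs, and Cldn6 was the other lower gene. Cdh2, N-cadherin, was 50173 in Flk1+ MPCs and 22916 in sfPCBs, and Krt18 was 62908 in Flk1+ MPCs and 165442 in sfPCBs, while Krt18 in PCBs was 31881.

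Replication and mitosis genes stayed within 4-fold. Of 23 tested, none was higher or lower, and the median was -0.50. Mki67 had 36048 in Flk1+ MPCs and 36158 in sfPCBs and Pcna had 97203 in Flk1+ MPCs and 67451 in sfPCBs. In M+CMs, 22 of the 23 were lower than in the same precursors, with Mki67 at 3799.7. Cyclin-dependent kinase inhibitors stood apart from this. Cdkn2a, which encodes p16 and p19Arf, had 44.8 in Flk1+ MPCs and 4161 in sfPCBs (log2 ratio 6.54 ± 0.24), and Cdkn2b, p15, had 92.4 in Flk1+ MPCs and 7987 in sfPCBs (log2 ratio 6.43 ± 0.21). Cdkn2c, p18, was not well above background in the precursors and had 375 in sfPCBs. Cdkn1c, p57, had 160.0 in Flk1+ MPCs and 1186 in sfPCBs, but Cdkn1a and Cdkn1b, p21 and p27, were 1835 in Flk1+ MPCs and 1529.6 in sfPCBs and 7397 in Flk1+ MPCs and 7421 in sfPCBs. In all, 5 of 14 D-type cyclins and inhibitors were higher and none was lower. In PCBs and M+CMs, Cdkn2a was 3220.0 and 45.8, Cdkn2b was 9129.8 and 164, Cdkn2c was 456 and 83.6, and Cdkn1c was 1017 and 1547. Cdkn2a was thus highest in sfPCBs, whereas Cdkn2b and Cdkn2c were highest in PCBs and Cdkn1c in M+CMs. The part of the mitomycin C-treated feeder was not tested.

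Glycolytic and hypoxia-response genes were lower on the whole, with 4 of 18 lower, 1 higher, and a median of -1.47. Egln3, a prolyl hydroxylase of oxygen sensing, had 12741 in Flk1+ MPCs and 1248 in sfPCBs, and Bnip3, a mitophagy protein induced by hypoxia, had 93278 in Flk1+ MPCs and 17202 in sfPCBs. Pfkl, the liver phosphofructokinase, had 24637 in Flk1+ MPCs and 3594 in sfPCBs, and Pdk1, which holds pyruvate out of mitochondria, had 3620.3 in Flk1+ MPCs and 787 in sfPCBs. Pgk1 was 334955 in Flk1+ MPCs and 88598 in sfPCBs, just under 4-fold. The higher gene was Car9, a carbonic anhydrase, with 77.9 in Flk1+ MPCs and 2854 in sfPCBs. Slc2a1, the main glucose transporter, was nearly equal, at 129297 in Flk1+ MPCs and 126135 in sfPCBs.

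Immediate early genes gave 6 higher and none lower of 17, with a median of 1.72. Fosl1 had 36.7 in Flk1+ MPCs and 1297 in sfPCBs, Fosb had 1809.7 in Flk1+ MPCs and 18353 in sfPCBs and Atf3 had 629 in Flk1+ MPCs and 5502 in sfPCBs. Myc was 9634 in Flk1+ MPCs and 2506 in sfPCBs, just under 4-fold lower. The imprinted growth genes gave 3 higher and none lower of 12, with Plagl1 at 3722 in Flk1+ MPCs and 52637 in sfPCBs and Igf2 at 86.8 in Flk1+ MPCs and 394 in sfPCBs. In the oxidative stress list, 3 of 16 were higher (2 with genes detected in 1 array set at their limit) and 1 was lower. Sod3, the extracellular superoxide dismutase, was not well above background in Flk1+ MPCs and had 6079.8 in sfPCBs, at least 331-fold higher, and Nqo1 had 49.6 in Flk1+ MPCs and 315 in sfPCBs. Mt2, a metallothionein, was lower (22367 in Flk1+ MPCs and 4424 in sfPCBs). Of 15 widely expressed reference genes, Hprt and B2m were the 2 that were higher and none was lower, with Actb at 526713 in Flk1+ MPCs and 452182 in sfPCBs.

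Noncoding genes were called at shares near those of all genes, with 40 of 695 (5.76%) at least 4-fold higher and 28 (4.03%) at least 4-fold lower in sfPCBs. Tslrn1, a long noncoding RNA, had a signal of 30.3 in Flk1+ MPCs and 1416 in sfPCBs, and 31.5 in PCBs. The transcript 3300005D01Rik had 51.5 in Flk1+ MPCs and 1483 in sfPCBs, and Morrbid, a noncoding RNA known from short-lived myeloid cells, had 22 in Flk1+ MPCs and 429.8 in sfPCBs. The largest decreases were Evx1os, transcribed opposite the streak gene Evx1 (937 in Flk1+ MPCs and 53.7 in sfPCBs), Pou5f1-rs4, which is related in sequence to Pou5f1 (336 in Flk1+ MPCs and 21.5 in sfPCBs), and D7Ertd143e (5580.0 in Flk1+ MPCs and 742 in sfPCBs).

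**Figure D5:**
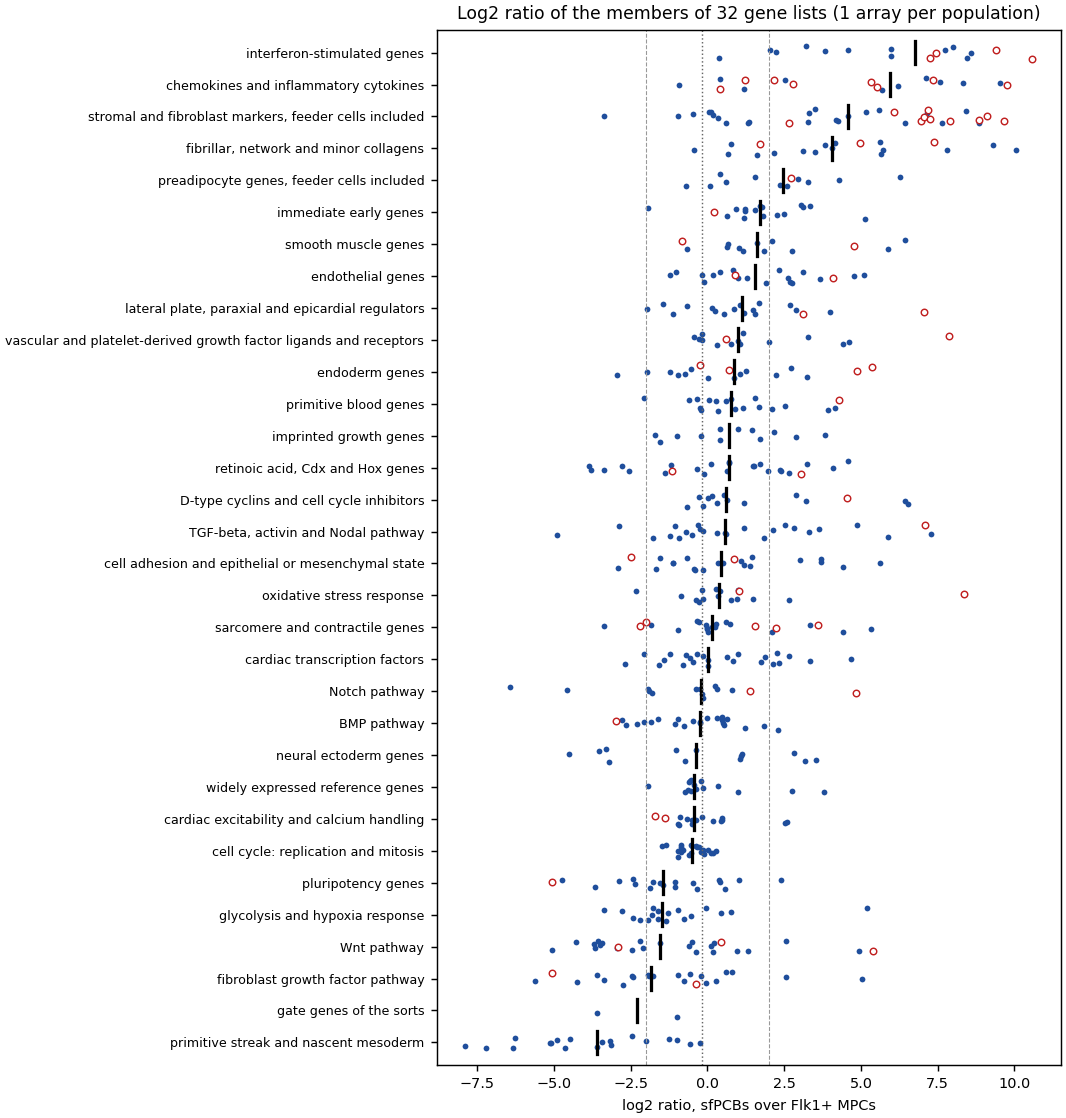
Log2 ratio, sfPCBs over Flk1+ MPCs, of the tested members of 32 gene lists (1 array per population); filled points are above background on both arrays, open points on 1 and set at their limit, and the bar is the list median of the ratios as measured. Dashed lines mark 4-fold and the dotted line the median of all genes (-0.19); interferon-stimulated genes (6.77) and chemokines (5.95) lie at the top and streak genes (-3.61) at the bottom.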

How the data were processed

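Total RNA of sorted cells was labelled with Cy3 and hybridised to 1-colour Agilent arrays, 4 on 1 slide, with 1 array per population. The deposited values are spot intensities that the authors made with Feature Extraction 11.5.1.1, and its processed signal is background-subtracted and not normalized between arrays. The series' value table, deposited on a log2 scale, served only as an alternative. Flagged spots were left out (135 in Flk1+ MPCs, 87 in sfPCBs). Each array was then scaled so that its 75th percentile met the mean of the 4 (factors 1.095 and 0.867). Repeated probes were averaged in log2. A probe was detected when at least 0.5 of its spots were called well above background. Of 39429 probes, 27508 carried a RefSeq accession that matched 1 symbol in a GRCm38.p6 table, and 1641 RefSeq probes did not match. The array annotation is on mm9, so no gene positions are given. Each gene took its brightest RefSeq probe, and ratios of at least 4-fold were counted. With 1 array per population, no test was run, and array number limits the precision.

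Named genes were the 15 largest increases and decreases detected in both arrays, the 5 largest each way by limit, up to 3 members each way in each list that passed 4-fold, members showing a list's unmoved part or checking a label, and the 3 largest noncoding genes each way. The comparison, the 32 gene lists and the markers were chosen with earlier results of these data known. Further members were named to describe the roles in each list, and some members are not reported here. Counting was tested on simulated arrays. Calculations used Python 3.11.15, pandas 2.3.3, and R 4.3.3 with limma 3.58.1 for normexp. Alternatives covered scaling, background correction, the detection filter, an offset, saturated spots, the authors' value table and the value per gene.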

Additional observations from a re-analysis of the deposited data

How the results depend on the processing

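Against 1369 higher and 625 lower genes, normexp with an offset of 50 left 764 and 251 with percentile scaling and 772 and 237 with quantile normalization, and an offset of 50 on the scaled signals left 853 and 269. Requiring detection in both arrays left 919 higher and 381 lower genes. For single probes, 2055 were higher and 1030 lower. These became 998 and 356 under normexp with percentile scaling, 1002 and 332 under normexp with quantile normalization, 1259 and 536 with detection in both arrays, and 1140 and 378 with the offset. Among 399 genes with several probes and a 4-fold difference, 93.5% had every probe in the same direction, and this became 96.9% under normexp with quantile normalization, 86.5% without a detection filter and 95.7% with the offset. Single ratios moved too, and folds given for single genes hold for the processing described. Of 150 named genes, the log2 ratio moved by at least its spot error (or the median spot error, where larger) in 124 and 137 under normexp with percentile scaling and with quantile normalization, in 116 with the offset and in 108 without scaling. No named gene that was at least 4-fold different, and no count, reversed its direction. The medians of the Notch, excitability and reference lists moved from below to above the median of all genes under at least 1 alternative. Of the list counts, 653 stayed within 1.5 times of the value given and 51 did not, and of the list medians 99 moved by at least the median spot error and 253 did not. No paired analysis was possible because each population had 1 array and the labels give no replicate numbers, and for the same reason no array could be left out.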

Other observations

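In 3 genes, Apol10b, Gm17019 and Vmn2r35, a probe was at least 4-fold higher and another probe at least 4-fold lower in sfPCBs. Xist was not well above background on any array, and the Y-linked Ddx3y had 2103 in Flk1+ MPCs and 2143 in sfPCBs. These genes were chosen after their values were seen.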
